A study of Mus musculus with 96 samples.

Results

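The genes described here are 9 genes of myelin and of the oligodendrocytes that make it, Mbp, Mobp, Mog, Mag, Cnp, Cldn11, Apod, Mal and Trf, out of 24054 genes counted in 96 single neurons of the mouse hypothalamus. They were chosen by name, and all 9 have a row in the table of read counts. Each neuron was recorded by whole-cell patch clamp in a brain slice of a C57BL/6N mouse aged 2 to 3 months, its contents were drawn into the glass pipette, and the RNA was amplified and sequenced (Patch-seq). The study sought genes that mark neurons of the preoptic area that respond to temperature. The labels sort 78 cells into 21 warm-sensitive, 5 cold-sensitive, 10 silent sensitive, 18 silent insensitive and 24 insensitive cells. The insensitive class is the one labelled without the word silent. All groups share strain, age and tissue. A further 18 cells have no class in the labels and enter no comparison. No label names an animal or a slice, so a class is treated as 1 sample. There are no tests, and each SD given is the spread between cells.

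Myelin is the spiral membrane sheath that oligodendrocytes wrap around axons. Mbp seals the inner faces of that membrane, and its mRNA is carried out of the cell body into the fine processes that touch axons, as is the mRNA of Mobp. A pipette that reaches a neuron in a slice passes through tissue that holds such processes, so RNA of these genes in a library of a picked neuron was taken here as a measure of RNA that may have come along with it. Of the 9 genes, Apod and Trf are the least specific: Apod, a lipid-binding protein, is also made by fibroblasts of the brain's coverings, and Trf, which carries iron, is made by several cell types.

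The cells had 465167 to 3660726 counts each (median 1279600). The precursor of ribosomal RNA, Rn45s, took 21.8% to 91.6% of them. Genes with at least 1 count numbered 1615 to 7770 per cell. As a check of the cell type, all 20 listed neuronal genes reached 10 CPM (counts scaled to a total of 1000000 per cell) in at least 37 cells, and Snap25, a protein of synaptic vesicle release, did so in 92 of 96. Genes of other glia were common too: the 12 microglia genes each reached 10 CPM in 7 to 52 cells. In 2 libraries the myelin genes stood far above all others. These are cell 2 without a class, with all 9 of the genes at 10 CPM or more, and warm-sensitive cell 17, with 8 of 9. Results that rest on them are given with and without them. The labels do not explain the letter in a cell's title, which was treated as a possible batch.

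The stretches of DNA just before the starts of the genes are shown for 4 of them, because Mobp was the gene most like Mbp, Cnp and Apod were the genes called between sensitive and insensitive cells, and Mog was the rarest. Capitals mark the letters ACAAAG or, on the opposite strand, CTTTGT, the core that SOX factors of oligodendrocytes bind. Both were searched, and they do not overlap each other. The sequences are from RefSeq on GRCm38.p6, end before the first transcribed base of the annotation, and are written along the gene's own strand: Mobp at chr9:120149492-120149706 on the plus strand, Cnp at chr11:100574689-100574903 on the plus strand, Apod at chr16:31314809-31315058 on the minus strand and Mog at chr17:37023399-37023648 on the minus strand.
Mobp: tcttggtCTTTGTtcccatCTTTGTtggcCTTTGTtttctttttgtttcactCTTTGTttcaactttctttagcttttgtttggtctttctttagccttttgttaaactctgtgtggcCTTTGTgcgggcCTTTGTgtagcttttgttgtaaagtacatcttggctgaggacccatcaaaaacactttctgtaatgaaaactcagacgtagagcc
Cnp: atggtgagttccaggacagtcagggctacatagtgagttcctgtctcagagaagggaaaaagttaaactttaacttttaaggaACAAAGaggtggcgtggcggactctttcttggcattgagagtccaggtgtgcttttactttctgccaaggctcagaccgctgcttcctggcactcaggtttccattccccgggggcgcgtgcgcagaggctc
Apod: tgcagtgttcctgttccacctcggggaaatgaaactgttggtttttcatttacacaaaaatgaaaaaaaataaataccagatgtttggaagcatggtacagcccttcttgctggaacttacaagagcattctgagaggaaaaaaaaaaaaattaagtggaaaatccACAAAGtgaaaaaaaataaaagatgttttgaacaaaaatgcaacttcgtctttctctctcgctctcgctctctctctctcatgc
Mog: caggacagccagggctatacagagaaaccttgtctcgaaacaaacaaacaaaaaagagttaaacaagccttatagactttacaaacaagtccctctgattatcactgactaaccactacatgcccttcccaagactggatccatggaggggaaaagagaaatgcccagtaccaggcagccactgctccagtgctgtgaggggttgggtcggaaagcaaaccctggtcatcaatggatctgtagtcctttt
The Mobp stretch holds 6 matches, all of the letters CTTTGT, from 243 to 115 bases before the RefSeq start. Cnp and Apod hold 1 each, of the letters ACAAAG, and Mog holds 0. Of 32851 windows of 250 bases before gene starts, 5408 (16.5%) hold at least 1 match, and the Mobp window is the 1 window of these with 6 or more. Of the 9 genes, 7 have such a window, and in 4 of them at least 1 window holds a match. A match is a description of the letters and shows no binding.

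Mbp was the most widespread of the 9. It reached 10 CPM in 79 of 96 cells (82.3%, exact Clopper-Pearson 95% interval 73.2% to 89.3%), and intervals of shares here cover counting error only. Per kilobase of exon, its summed level was 132 CPM, against 43.7 CPM for Trf, 35.2 CPM for Cnp, 24.3 CPM for Apod, 20.3 CPM for Mobp and 16.8 CPM for Mal. Mag, Mog and Cldn11 were lowest, at 3.87, 2.21 and 1.94 CPM per kilobase. Mobp reached 10 CPM in 48 cells, Cnp in 30, Trf in 28, Apod in 21 and Mal in 14, while Mag and Cldn11 did so in 5 cells each and Mog in 3. By this share, which is not scaled to length, Mbp and Mobp were the 2 most often found. They also have the longest exons of the 9 genes, at 8469 and 6849 bases. Per kilobase, Mobp stood below Trf, Cnp and Apod. The part of gene length or of mRNA transport in these shares was not tested. In the GENCODE M21 annotation on mm10 the genes of the sheath's surfaces and junctions lie at chr7:30899176-30914873 (Mag), chr17:37010743-37023398 (Mog) and chr3:31149920-31164324 (Cldn11), Mal at chr2:127633226-127656695 and Trf at chr9:103204001-103230444. Cnp, at chr11:100574904-100591729, overlaps Dnajc7 on the opposite strand, and since the use of strand in counting is not stated, reads of the shared stretch cannot be told apart.

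Mbp, on chromosome 18, had a median of 431 CPM in warm-sensitive cells, from 1.73 to 4135 CPM, and 17 of 21 reached 10 CPM. The 5 cold-sensitive cells held 8670, 1078, 1048, 201 and 506 CPM. Silent sensitive cells had 0 to 5769 CPM with a median of 434 CPM. Silent insensitive cells had the highest median, 1245 CPM, and the highest single value, 12031 CPM in cell 10, above a lowest value of 1.77 CPM. Insensitive cells had 2.33 to 4711 CPM with a median of 299 CPM, and the cells without a class had 1.99 to 4768 CPM with a median of 446 CPM. Every class spanned at least 1 order of magnitude, and the ranges of all classes overlapped.

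Mobp, a second basic protein of compact myelin, was present in some cells and almost absent from others of every class. Its median was 1.75 CPM in warm-sensitive cells, where the highest was 1130 CPM. The cold-sensitive cells held 1018, 496, 0.37, 3.47 and 31.3 CPM. Medians were 83.3 CPM in silent sensitive cells (highest 658 CPM), 62.0 CPM in silent insensitive cells (highest 1049 CPM) and 0.827 CPM in insensitive cells (highest 652 CPM), and the lowest cell of each of these classes and of the warm-sensitive class was at 0. The silent classes thus had medians above 10 CPM, and the warm-sensitive and insensitive classes had medians below it.

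Cnp, an enzyme of the loose, non-compact folds of myelin, reached 10 CPM in 10 of 18 silent insensitive cells, with a median of 64.1 CPM and a highest value of 857 CPM. In the other classes most cells were near 0: medians were 0.465 CPM in warm-sensitive, 0.398 CPM in silent sensitive and 0.964 CPM in insensitive cells, with highest values of 1312, 1017 and 416 CPM. The cold-sensitive cells held 57.5, 0.41, 0, 555 and 0.64 CPM. Each class except silent insensitive thus had a low median and at least 1 cell far above it.

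Trf and Apod had their highest class shares in the cold-sensitive cells. Trf stood at 544, 646, 0, 0 and 121 CPM in these 5 cells. Its median was 0 in warm-sensitive cells, with a highest value of 2971 CPM, 2.05 CPM in silent sensitive, 0.879 CPM in silent insensitive and 0.707 CPM in insensitive cells, with highest values of 777, 699 and 1035 CPM. Apod stood at 406, 0.41, 60.3, 0 and 112 CPM in the cold-sensitive cells. It reached 10 CPM in 6 of 21 warm-sensitive, 1 of 10 silent sensitive, 2 of 18 silent insensitive and 4 of 24 insensitive cells, with highest values of 1337, 608, 171 and 340 CPM. In both genes the cold-sensitive values lay inside the range of the warm-sensitive cells.

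Mal, Mag, Cldn11 and Mog were held by few cells. Mal, a small membrane protein of myelin's lipid-rich domains, reached 10 CPM in 3 of 21 warm-sensitive, 1 of 5 cold-sensitive, 1 of 10 silent sensitive, 4 of 18 silent insensitive and 3 of 24 insensitive cells. Its highest values were 4297 CPM in warm-sensitive cell 17 and 1165 CPM in cell 2 without a class, and outside these cells 207 CPM in silent insensitive cell 7. Mag, an adhesion molecule on the sheath face next to the axon, had 1676 CPM in warm-sensitive cell 17, 368 CPM in cell 2 without a class, 56.8 and 42.0 CPM in silent insensitive cells 2 and 12, and 16.8 CPM in warm-sensitive cell 21. In the 24 insensitive cells Mag had 0 counts, which, with the limit set at 3 cells, allows a share of cells with a count of up to 12.5%. Cldn11, which forms the tight junctions of the sheath, had 278 CPM in cell 2 without a class, 81.4 and 35.3 CPM in warm-sensitive cells 17 and 13, and 17.8 and 10.8 CPM in silent insensitive cells 12 and 11. Mog, a protein of the outermost surface of the sheath, had 203 and 83.8 CPM in cells 2 and 4 without a class and 27.1 CPM in insensitive cell 21. It had 0 counts in the 21 warm-sensitive, 5 cold-sensitive and 10 silent sensitive cells, which by the same limit of 3 cells allows shares of up to 14.3%, 60% and 30%. Cell 2 without a class was the 1 cell that carried all 4 of these genes at 10 CPM or more.

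**Figure D1:**
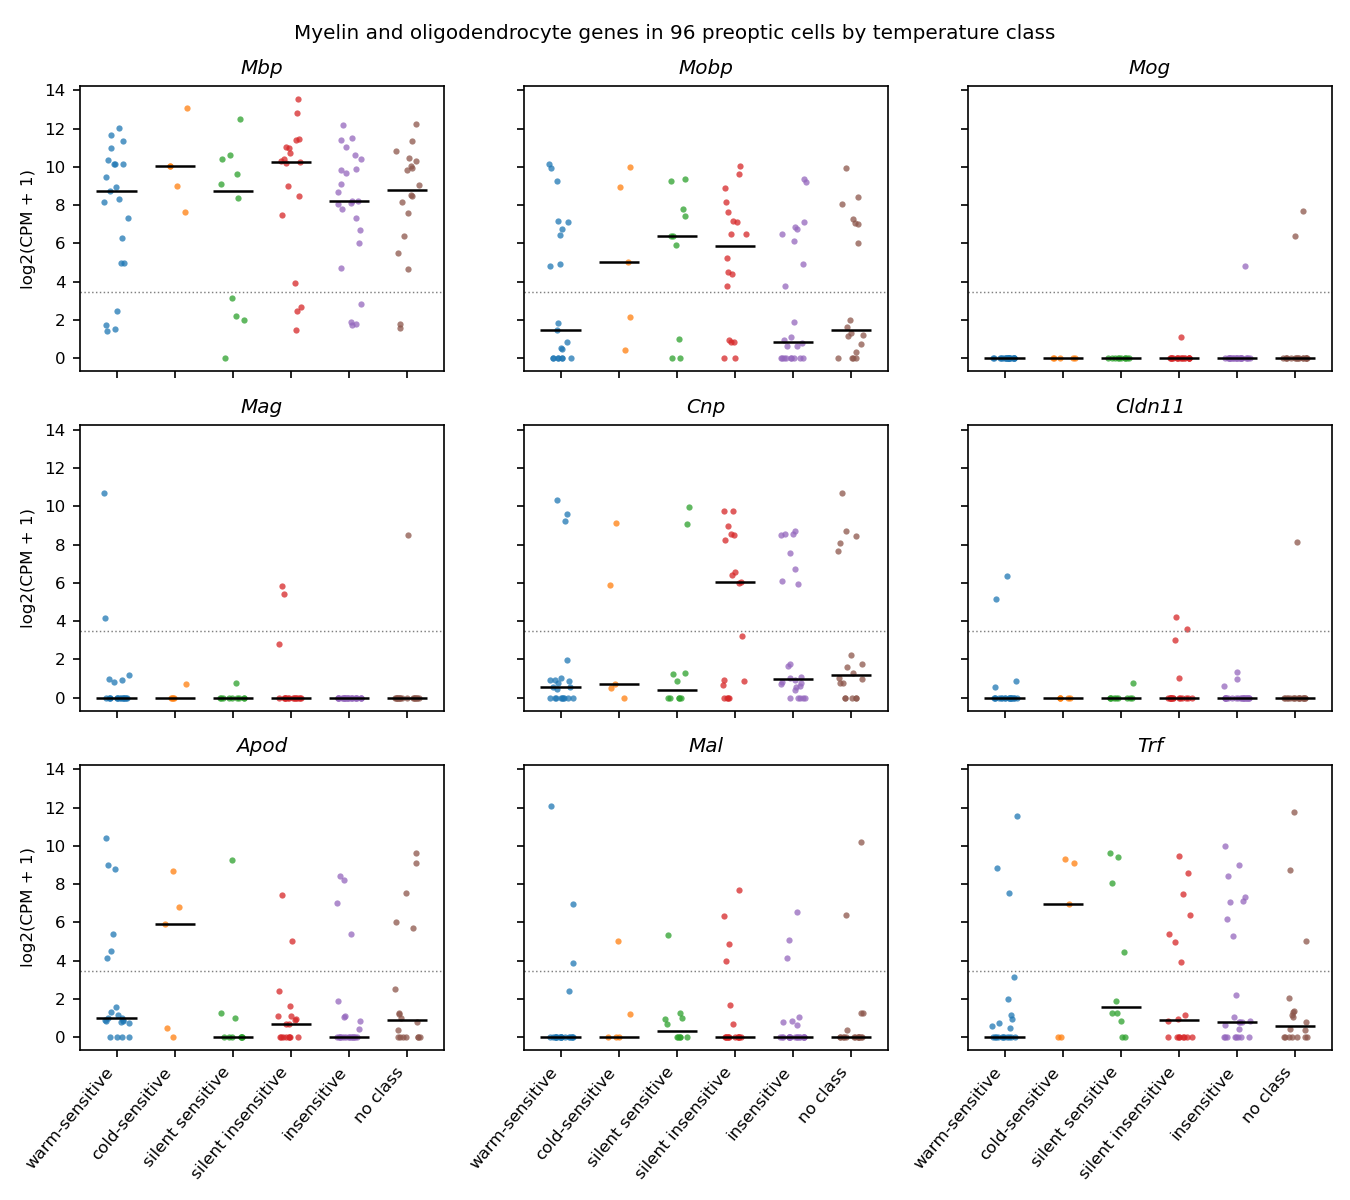
Level of each of the 9 genes as log2(CPM + 1) on the vertical axis, 1 panel per gene and 1 point per cell, by class; black bars are class medians and the dotted line is 10 CPM. Mbp is above the line in 79 of 96 cells, Mog in 3.

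Ranked by the mean of log2(CPM + 1), the classes came in another order for each gene. For Mbp the order was cold-sensitive, silent insensitive, insensitive, warm-sensitive and silent sensitive, with means of 9.97 ± 2.00, 8.82 ± 3.70, 7.83 ± 3.18, 7.68 ± 3.51 and 6.80 ± 4.47. For Mobp silent sensitive cells came first at 5.36 ± 3.66, then cold-sensitive at 5.31 ± 4.15, silent insensitive at 5.12 ± 3.39, warm-sensitive at 3.42 ± 3.78 and insensitive cells at 2.78 ± 3.33. For Cnp silent insensitive cells came first at 4.69 ± 3.88 and warm-sensitive cells last at 1.78 ± 3.38. For Apod and Trf the cold-sensitive cells came first. In Mbp, Mobp, Cnp, Apod, Mal and Trf, neighbouring classes in the order differed by less than the smaller of their SDs, so the order within these genes is not resolved by the spread between cells.

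Counted per cell, the number of the 9 genes at 10 CPM or more was 0 in 10 cells, 1 in 22, 2 in 24, 3 in 18, 4 in 12, 5 in 5, 6 in 2, and 7, 8 and 9 in 1 cell each. At least 1 of the genes was thus present in 86 of 96 cells (89.6%). At least 3 were present in 6 of 21 warm-sensitive cells (28.6%, interval 11.3% to 52.2%), 3 of 5 cold-sensitive cells, 5 of 10 silent sensitive cells (50%, 18.7% to 81.3%), 12 of 18 silent insensitive cells (66.7%, 41% to 86.7%) and 8 of 24 insensitive cells (33.3%, 15.6% to 55.3%). These intervals overlap. The summed share of a cell's counts was small: the median over 96 cells was 0.094%, and the highest was 1.56%, in warm-sensitive cell 17.

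**Figure D2:**
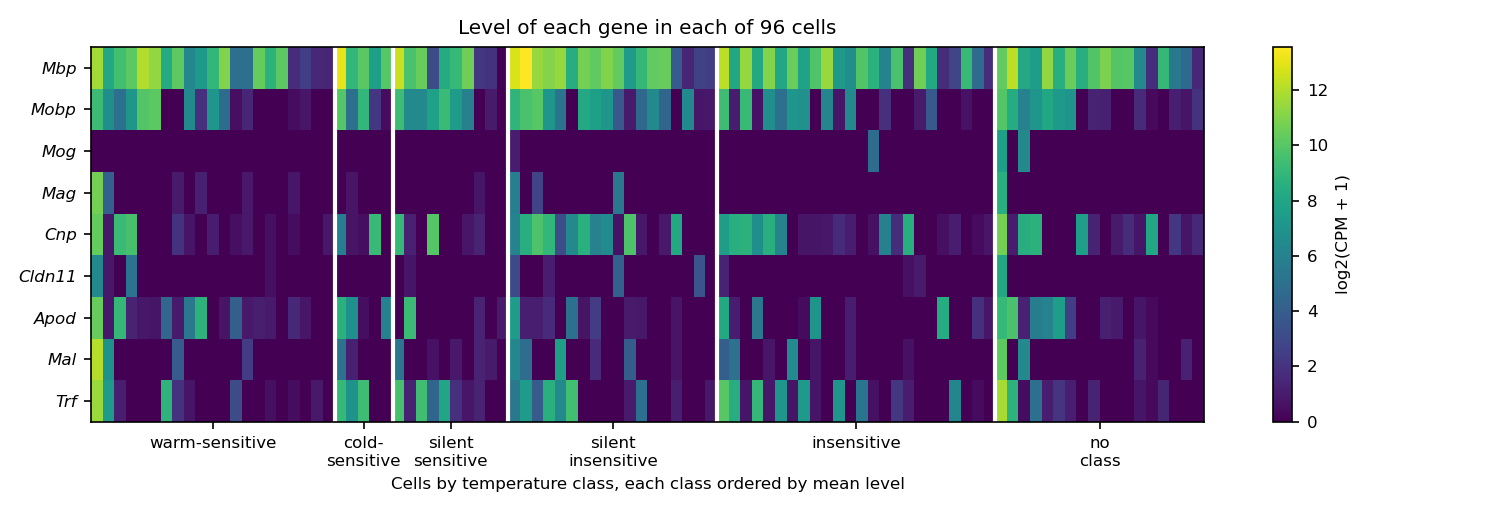
Level of the 9 genes (rows, colour as log2(CPM + 1)) in the 96 cells (columns), grouped by class and ordered within a class by the mean over the 9 genes. Mbp fills most columns, while Mog, Mag and Cldn11 fill 3, 5 and 5 of them at 10 CPM or more.

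The mean over the 9 genes of log2(CPM + 1) in a cell, called the myelin level here, ran from 0.11 to 9.60. Its mean was 2.21 ± 1.92 for the warm-sensitive and 3.26 ± 1.55 for the cold-sensitive cells, 2.25 ± 1.49 for silent sensitive, 2.83 ± 1.53 for silent insensitive and 2.10 ± 1.18 for insensitive cells (SD between cells). Cell 2 without a class stood at 9.60 and warm-sensitive cell 17 at 9.15. The next cells were silent insensitive cell 2 at 6.32, insensitive cell 2 at 5.87 and cold-sensitive cell 1 at 5.75, so the 2 highest libraries stood well clear of the rest. Warm-sensitive cell 17 held 3273 CPM of Mbp, 1312 CPM of Cnp and 2971 CPM of Trf, and cell 2 without a class held 1250, 1689 and 3535 CPM. They differed in neuronal RNA: 10 of the 20 neuronal genes reached 10 CPM in warm-sensitive cell 17, which had 2544 genes with a count, and 20 of 20 did in cell 2 without a class, which had 7770, the most of any cell. Together they held 90.6% of the Mag counts, 82.2% of the Mal counts and 77.0% of the Cldn11 counts of the series, whereas the single cell with the most Mbp held 8.86% of the Mbp counts.

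Over the 96 cells the 36 pairs of the 9 genes had a median Pearson correlation of 0.31 on the log2(CPM + 1) scale, from 0.072 to 0.80, and 19 of the 36 reached 0.3. Among all pairs of the 6903 genes found at 10 CPM or more in at least 10 cells, 4.15% reached 0.3, and the median was 0.0999. Cells share depth and library preparation, so these are descriptions, with no test. Only 6 of the 9 genes, without Mog, Mag and Cldn11, were in that background set, and their 15 pairs had a median of 0.32. Without cell 2 without a class and warm-sensitive cell 17, a choice made after seeing the data, the median of the 36 pairs was 0.13, 5 pairs reached 0.3, and 3.78% of the background pairs did. The median of the 15 pairs was then 0.26, and 3 of them reached 0.3, against 9 over 96 cells. The median of the background pairs was then 0.093. The joint variation of the 36 pairs was thus smaller outside these 2 libraries, while the 15 comparable pairs kept a median above that of other genes. The 2 libraries were picked for carrying the most of these genes, so a lower value is partly set by that choice.

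Mbp and Mobp correlated within every class. Their correlation was 0.56 over 96 cells and 0.55 without the 2 libraries, and 0.00542% of the background pairs were as high. By class it was 0.56 within warm-sensitive, 0.67 within cold-sensitive (5 cells), 0.79 within silent sensitive, 0.67 within silent insensitive and 0.54 within insensitive cells. Both genes reached 10 CPM in 46 cells, which is 95.8% of the cells with Mobp and 58.2% of those with Mbp. Mobp RNA was therefore found almost always beside Mbp RNA, and Mbp RNA often without Mobp RNA. Mbp reached 10 CPM in 82.3% of all 96 cells, however, so such an overlap is not particular to Mobp. Among cells with each of the other genes, the share with Mbp ran from 80% for Cldn11 to 100% for Mog, Mag and Mal. Of 6902 other genes, Mobp was the one most like Mbp, and Mbp the one most like Mobp.

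Other pairs behaved differently. Mag and Cldn11 correlated at 0.80, and at 0.50 without the 2 libraries, Mag and Mal at 0.65 and 0.31, and Cldn11 and Mal at 0.51 and 0.078. By Spearman, Mag and Cldn11 stood at 0.37 and 0.23. Without the 2 libraries each of these 2 genes reached 10 CPM in 3 cells. Cnp, which oligodendrocytes also make in quantity, correlated with Mobp at 0.32 and 0.27 but with Mbp at 0.19 and 0.16. Within classes the median of the pairs was 0.42 among warm-sensitive and 0.26 among cold-sensitive cells. It was 0.089 among silent sensitive, 0.28 among silent insensitive and 0.18 among insensitive cells. Genes without a count in a class give no pair there. The warm-sensitive median includes the warm-sensitive library of the 2, which held 71.8% of the Mag and 62.1% of the Mal counts of the series. A median without that library was not computed, so the classes are not ranked by these values.

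**Figure D3:**
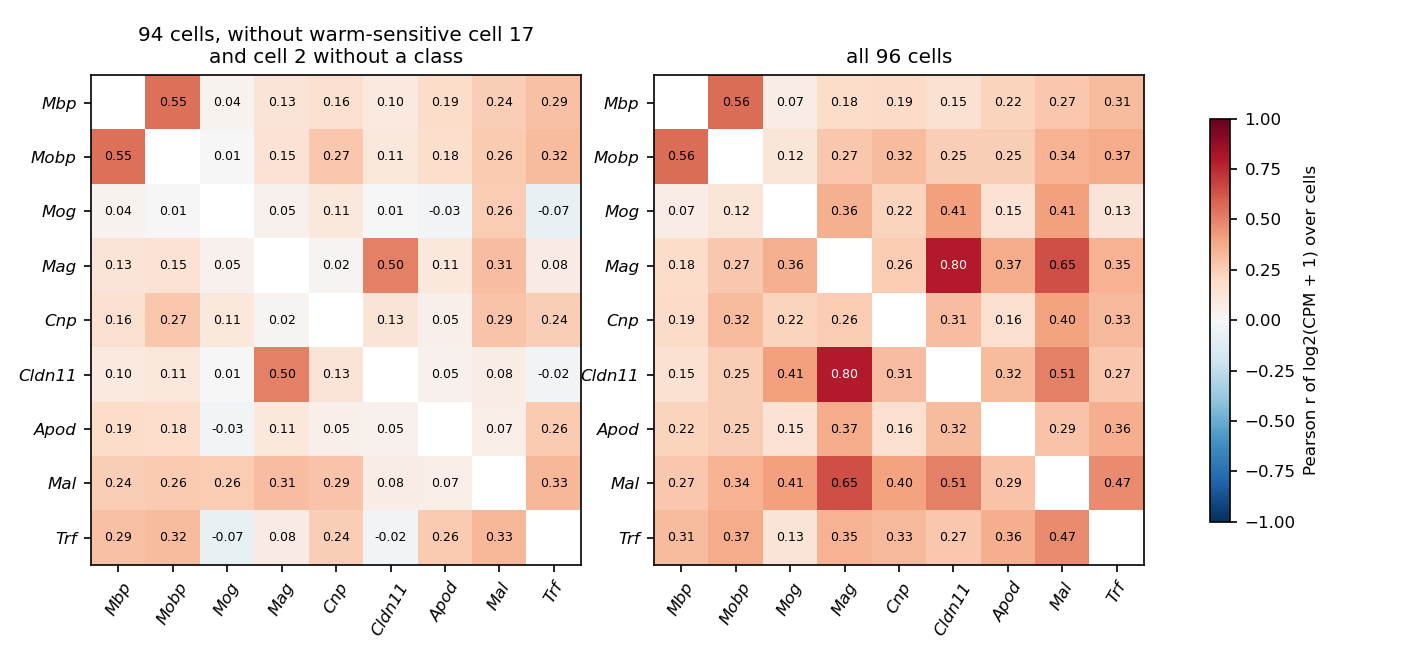
Pearson correlation of log2(CPM + 1) between each pair of the 9 genes, over 94 cells (left, without cell 2 without a class and warm-sensitive cell 17) and over 96 cells (right). The block of Mag, Cldn11 and Mal is paler on the left, and the Mbp and Mobp square is 0.55 on the left and 0.56 on the right.

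Set against a list of 32 other genes of mature oligodendrocytes, the myelin level correlated with the mean level of that list at 0.78 over 96 cells and at 0.62 without the 2 libraries. Of the 32 genes, 31 reached 10 CPM in at least 1 cell, but only 4 did in 24 or more cells. These were Plekhb1 in 52 cells, Qdpr in 51, Cryab in 29 and Bcas1 in 24, of which Cryab and Qdpr are also expressed outside oligodendrocytes. Nuclear factors of the lineage on this list varied. Sox10 reached 10 CPM in 3 cells, Olig2 in 2, Myrf in 1 and Nkx6-2 in 7, while Olig1 did so in 18. Of the 32 genes, 26 correlated at 0.3 or more with the myelin level, and 5 did without the 2 libraries. Of 11 genes of oligodendrocyte precursors, 7 reached 10 CPM in any cell, and 0 correlated at 0.3 or more with the myelin level. The 32 genes reached 10 CPM in a median of 5.5 cells. No share over all genes stands beside these counts of correlated genes, so they are not read as a result about either list.

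Depth and the share of ribosomal precursor moved little with the myelin level: its correlation was -0.065 with the log2 total count and -0.096 with the percentage of Rn45s. With the number of genes with a count it was 0.36, and 0.25 without the 2 cells farthest on that measure. It was 0.11 with the neuronal list, 0.24 with the astrocyte list, 0.29 with the microglia list and 0.10 with the endothelial list. Without cell 2 without a class and warm-sensitive cell 17 the astrocyte and microglia values were 0.34 and 0.40. These are weak relations in sparse counts, and no more is read from them.

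The genes most like the myelin level over 96 cells included, outside the lists used here, Cops7b at 0.49, Gatm at 0.46, Reep3 at 0.46, Dbndd2 at 0.44 and Psat1 at 0.44. Without the 2 libraries these values were 0.37, 0.28, 0.33, 0.33 and 0.23. Gatm makes a precursor of creatine and Psat1 makes serine. Cryab, a small heat-shock protein, stood at 0.48 and Plekhb1 at 0.45, and they were 0.39 and 0.44 without the 2 libraries. Among single genes, Mag was most like Mal and Cntn2 (0.65 and 0.55), Cnp most like Tcf4 (0.44) and Mal most like Mysm1 (0.58). Without the 2 libraries these values were 0.31 and 0.39 for Mag, 0.38 for Cnp and 0.52 for Mal.

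Trf stood apart from the other genes in the company it kept. Its most similar genes were Siglech at 0.59 and Cx3cr1 at 0.58, both microglial surface receptors, and these values were 0.67 and 0.66 without the 2 libraries. Against the mean of the 12 microglia genes Trf correlated at 0.60, and at 0.66 without the 2 libraries. All 11 microglia genes frequent enough to compare correlated with Trf at 0.39 or more, with a median of 0.49. For each of the other 8 genes 0 of 11 reached 0.3, and the highest value was 0.27. Trf also correlated with the number of genes with a count at 0.43.

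Apod kept other company. Its most similar genes included Ifitm3 at 0.65, an interferon-induced membrane protein, and Ptgds at 0.57. Ptgds makes prostaglandin D2, is also made by oligodendrocytes and by fibroblasts of the brain's coverings, and is the gene the study is known for. It reached 10 CPM in 87 of 96 cells. Apod correlated with the mean of 11 fibroblast and mural genes at 0.48 over 96 cells and at 0.53 without the 2 libraries, while the myelin level correlated with that list at 0.15. The myelin level correlated with Ptgds at 0.34. Readings of Trf and Apod as oligodendrocyte RNA therefore stand beside these values, and the source of either RNA was not tested.

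**Figure D4:**
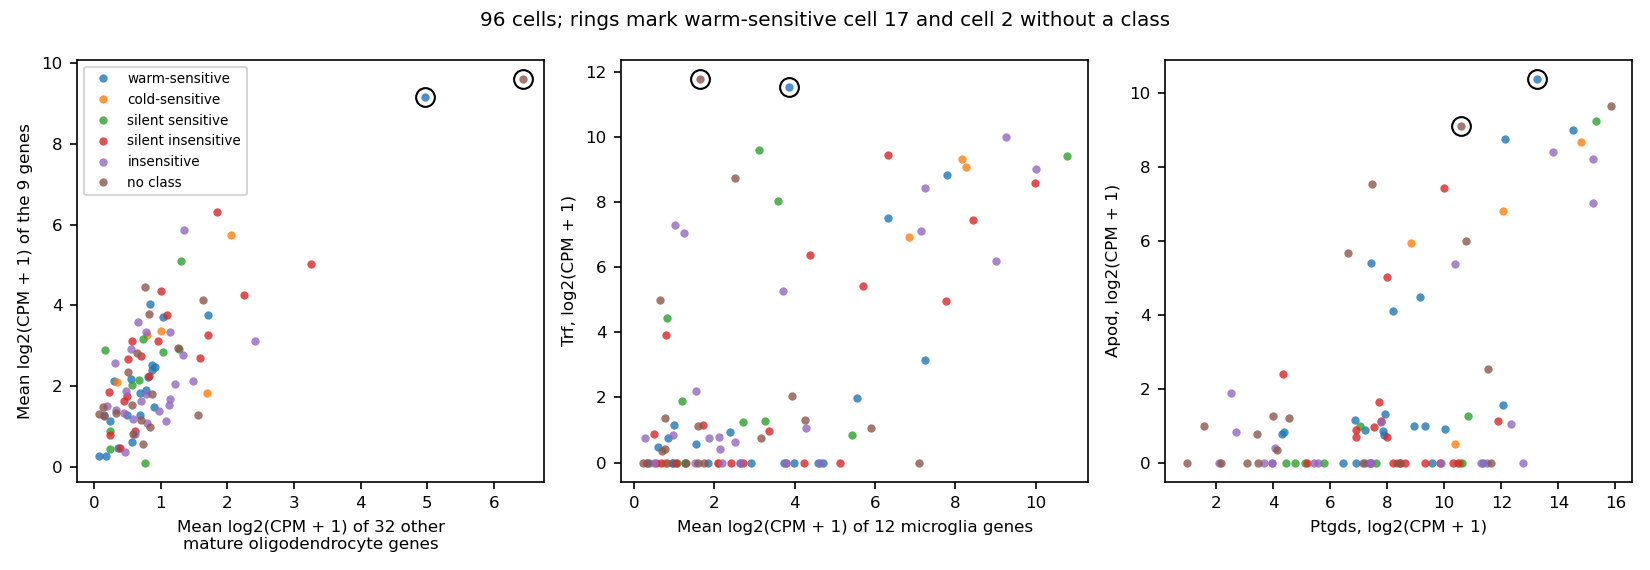
Each point is 1 of the 96 cells on log2(CPM + 1) axes, and rings mark cell 2 without a class and warm-sensitive cell 17. From left to right, the myelin level is set against the mean of 32 other oligodendrocyte genes (r = 0.78), Trf against the mean of 12 microglia genes (r = 0.60) and Apod against Ptgds (r = 0.57).

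The classes were then compared by the difference of mean log2(CPM + 1), and a gene was called higher or lower at a difference of 1 or more, which is at least 2-fold on this scale and understates changes of low genes. Eligible genes reached 10 CPM in at least 25% and at least 3 of the cells of either group, and calls are counted among these. Of the 9 genes, Mbp, Mobp, Cnp, Apod and Trf were eligible in 4 of the comparisons, and the exceptions are named. Mog, Mag, Cldn11 and Mal were in none, and with means near 0 they could be lower by little. The median eligible gene was below 0 in all 6 comparisons and is given with each. In none of the 6 comparisons did the difference of any of the 9 genes exceed the larger SD between cells of the 2 groups.

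Sensitive and insensitive cells differed little in the myelin level. The myelin level was 2.37 ± 1.76 in the 36 sensitive cells and 2.42 ± 1.37 in the 42 insensitive cells, both including silent cells, a difference of -0.048. Apod was the 1 gene called higher, at 2.40 ± 3.30 in sensitive and 1.34 ± 2.43 in insensitive cells, and 10 of 36 against 6 of 42 cells reached 10 CPM. Of 3733 eligible genes, 0.241% were called higher. Cnp was the 1 gene called lower, at 2.11 ± 3.54 in sensitive and 3.70 ± 3.69 in insensitive cells, beside 48.6% of eligible genes called lower. It reached 10 CPM in 7 of 36 sensitive cells (19.4%) and 18 of 42 insensitive cells (42.9%). In summed counts, in which the few cells with most RNA weigh most, Cnp was at 116 CPM in sensitive and 114 CPM in insensitive cells, and at 92.6 CPM in sensitive cells without warm-sensitive cell 17. The median eligible gene was lower by 0.98 in sensitive cells, and 4 of the 5 eligible genes, Cnp being the exception, stood above that median. Relative to that median Apod was higher by 2.04, and Cnp was lower by 0.61. Within title letters Apod differed by 0.90 and Cnp by -1.39. The Apod difference was below 1 without any 1 of 8 sensitive cells, and 0.84 without warm-sensitive cell 17. Of the 20 neuronal genes, 12 were lower by 1 or more in the sensitive cells.

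Against the insensitive cells, warm-sensitive cells had a myelin level of 2.21, and the insensitive cells 2.10. Apod was called higher, at 2.53 ± 3.24 in warm-sensitive and 1.43 ± 2.75 in insensitive cells, a difference of 1.10, where 0.522% of 4601 eligible genes were called higher. Cnp and Trf were called lower, by 1.18 and 1.07, where 67.6% of eligible genes were. The median eligible gene was lower by 1.36, and the 5 eligible genes stood above it, so that relative to it Cnp and Trf were higher by 0.18 and 0.29. Within title letters Apod differed by 1.13, Cnp by -1.15 and Trf by -1.14. With totals that leave out Rn45s, Mobp and Mag passed the threshold as well, at 1.16 and 1.33. These calls were not stable to single cells. Apod was below 1 without any 1 of warm-sensitive cells 5, 16, 17 and 19, and stood at 0.71 without cell 17. The number of genes called lower was 1 in place of 2 without any 1 of 20 cells, and 0 without insensitive cell 2 or 23. Warm-sensitive cell 17 set the summed levels of the warm-sensitive class: with it Mag stood at 57.8 CPM, Mal at 152 CPM and Trf at 126 CPM, and without it at 0.953, 6.37 and 26.2 CPM, against 0, 5.95 and 135 CPM in insensitive cells. Of the 20 neuronal genes, 16 were lower by 1 or more in warm-sensitive cells. These cells held a median of 3244 genes per cell and insensitive cells 4022, and Rn45s took a median of 67.7% of counts in warm-sensitive and 45.4% in insensitive cells. Their part in the result was not tested.

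Cold-sensitive cells had a myelin level of 3.26 ± 1.55, and insensitive cells of 2.10 ± 1.18. Apod, Mobp, Trf and Mbp were called higher, by 2.96, 2.54, 2.24 and 2.14, beside 13.9% of 4644 eligible genes called higher, and 0 were called lower, beside 35.4%. Among eligible genes the median was -0.52. Mbp averaged 9.97 ± 2.00 in cold-sensitive and 7.83 ± 3.18 in insensitive cells, and Mobp 5.31 ± 4.15 in cold-sensitive and 2.78 ± 3.33 in insensitive cells. The class holds 5 cells, and cold-sensitive cell 1 was the highest of them in Mbp and in Mobp. Without it the 4 differences were 1.88 for Apod, 1.37 for Mobp, 1.24 for Trf and 1.36 for Mbp, and the summed Mbp level of the cold-sensitive cells was 850 CPM in place of 2184 CPM, against 853 CPM in insensitive cells. Without cold-sensitive cell 2 Trf stood at 1.18, without cell 3 at 3.51, and without cell 4 Cnp was called lower, by 1.19. Of the 32 other oligodendrocyte genes, 8 were higher by 1 or more and 3 lower. Among them Cryab was 3.75 higher, at 10 CPM in 4 of 5 cold-sensitive and 3 of 24 insensitive cells, and Plekhb1 3.12 higher, at 5 of 5 and 12 of 24. Qdpr was 3.23 lower, at 1 of 5 and 17 of 24. The oligodendrocyte genes therefore did not all move one way.

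Microglia genes moved in the same direction in this comparison: 11 of 12 were higher in cold-sensitive cells by 1 or more, with a median of 1.65, and Tmem119 had no count in the 5 cells. Their summed level ran from 11.6 to 11980 CPM over the cold-sensitive cells and from 4.19 to 18548 CPM over the insensitive cells. Of the 20 neuronal genes, 11 were lower by 1 or more. The part of either in the result was not tested. Within title letters, the differences were 2.65 for Apod, 3.48 for Mobp, 4.02 for Trf and 2.86 for Mbp. Ptgds was 3.37 higher in the cold-sensitive cells, at 11.33 ± 2.24, than in the insensitive cells, at 7.96 ± 4.10.

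Silent sensitive cells had a myelin level of 2.25 ± 1.49, and silent insensitive cells of 2.83 ± 1.53. Cnp was called lower in silent sensitive cells, at 2.24 ± 3.89 against 4.69 ± 3.88 in silent insensitive cells, and Mbp at 6.80 ± 4.47 against 8.82 ± 3.70. Among 3459 eligible genes 38.7% were called lower and 10.4% higher, and 0 of the 4 eligible genes among the 9, which here leave out Apod, were called higher. Cnp reached 10 CPM in 2 of 10 silent sensitive and 10 of 18 silent insensitive cells, and Mbp in 6 of 10 and 15 of 18. The median eligible gene was lower by 0.65, and relative to it Cnp was lower by 1.79 and Mbp by 1.37. Within title letters Cnp differed by -2.11 and Mbp by -0.95, so the Mbp call did not hold there. Without silent sensitive cell 9 Mbp differed by -1.27. In summed counts Cnp stood at 183 CPM in silent sensitive and 173 CPM in silent insensitive cells. Of the 32 other oligodendrocyte genes, 4 were lower by 1 or more and 2 higher, with a median of -0.35, and Plekhb1 was 2.83 lower. Counted over whole lists, eligible or not, 4 of 14 astrocyte, 3 of 12 microglia and 6 of 20 neuronal genes were lower by 1 or more. In these lists 0, 0 and 1 were higher. All 20 neuronal genes were eligible here, and their share lower is below the 38.7% of all eligible genes. Only 5 astrocyte and 10 microglia genes were eligible, so their whole-list counts cannot be set against that share. No result about these cell types is read from these counts. The summed astrocyte level ran from 10.9 to 4796 CPM over silent sensitive and from 5.62 to 4966 CPM over silent insensitive cells, and Aldh1l1 and Sox9 had no count in silent sensitive cells. The summed microglia level ran from 11.6 to 27274 CPM over silent sensitive and from 6.16 to 24971 CPM over silent insensitive cells. Their part in the result was not tested.

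The 28 silent cells, sensitive and insensitive together, had a myelin level of 2.63 ± 1.52 and the 50 other cells of 2.26 ± 1.57. Mobp and Cnp were called higher in silent cells, beside 2.73% of 3481 eligible genes, and 0 were called lower, beside 15.3%. Among eligible genes the median was -0.29. Apod went the other way, lower by 0.99 in silent cells, at 10 CPM in 3 of 28 silent and 13 of 50 other cells, and without any 1 of 41 of the 78 cells it was called lower. Mobp averaged 5.20 ± 3.42 in silent and 3.30 ± 3.61 in the other cells, a difference of 1.91, and reached 10 CPM in 20 of 28 (71.4%) and 21 of 50 (42%). Cnp averaged 3.82 ± 4.0 in silent and 2.49 ± 3.45 in the other cells, a difference of 1.33, and reached 10 CPM in 12 of 28 and 13 of 50. At least 3 of the 9 genes were present in 17 of 28 silent cells (60.7%, interval 40.6% to 78.5%) and 17 of 50 other cells (34%, 21.2% to 48.8%). Mbp did not share this pattern, with a difference of 0.12. The Mobp difference stayed between 1.73 and 2.10 when any 1 cell was left out, was 2.39 within title letters, and was 2.20 relative to the median gene. In summed counts it was 0.35 and no longer a call, with Mobp at 173 CPM in silent and 136 CPM in the other cells, and the mean over the 9 genes was then -0.73. The Cnp difference stayed between 1.10 and 1.49, was 1.47 within title letters, was 1.62 relative to the median gene, and was 1.03 in summed counts.

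Warm-sensitive cells had lower means than cold-sensitive cells in 6 of the 9 genes and higher means in 2. Among all eligible genes only 19.3% had higher means, so lower means were not particular to the 9 genes. Trf, Mbp, Mobp and Apod, the 4 eligible here, were called lower, by 3.31, 2.29, 1.90 and 1.85, beside 62.6% of 2199 eligible genes, and 0 were called higher, beside 7.37%. Cnp, which was not eligible in this comparison, was lower by 1.46. Mbp averaged 7.68 ± 3.51 in warm-sensitive and 9.97 ± 2.00 in cold-sensitive cells. The median eligible gene was lower by 1.56, and relative to it Trf was lower by 1.76, Mbp by 0.73, Mobp by 0.34 and Apod by 0.30, so that Trf alone of the 4 kept its call. Without cold-sensitive cell 1 the number of genes called lower was 2, with Mbp at -1.51, Mobp at -0.73 and Apod at -0.78, and without cold-sensitive cell 4 Cnp differed by 0.0058. Relative to the median gene Cnp was 0.093 higher, and in summed counts it stood at 102 CPM in warm-sensitive and 62.3 CPM in cold-sensitive cells. Within title letters Trf differed by -4.07, Mbp by -1.43, Mobp by -1.30, Apod by -1.62 and Cnp by -0.78. In the same comparison 11 of the 12 microglia genes were lower in warm-sensitive cells, with a median of -2.19. Their summed level ran from 5.26 to 7818 CPM over the warm-sensitive and from 11.6 to 11980 CPM over the cold-sensitive cells, and their part in the result was not tested. This comparison shares its cells with those against the insensitive class.

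**Figure D5:**
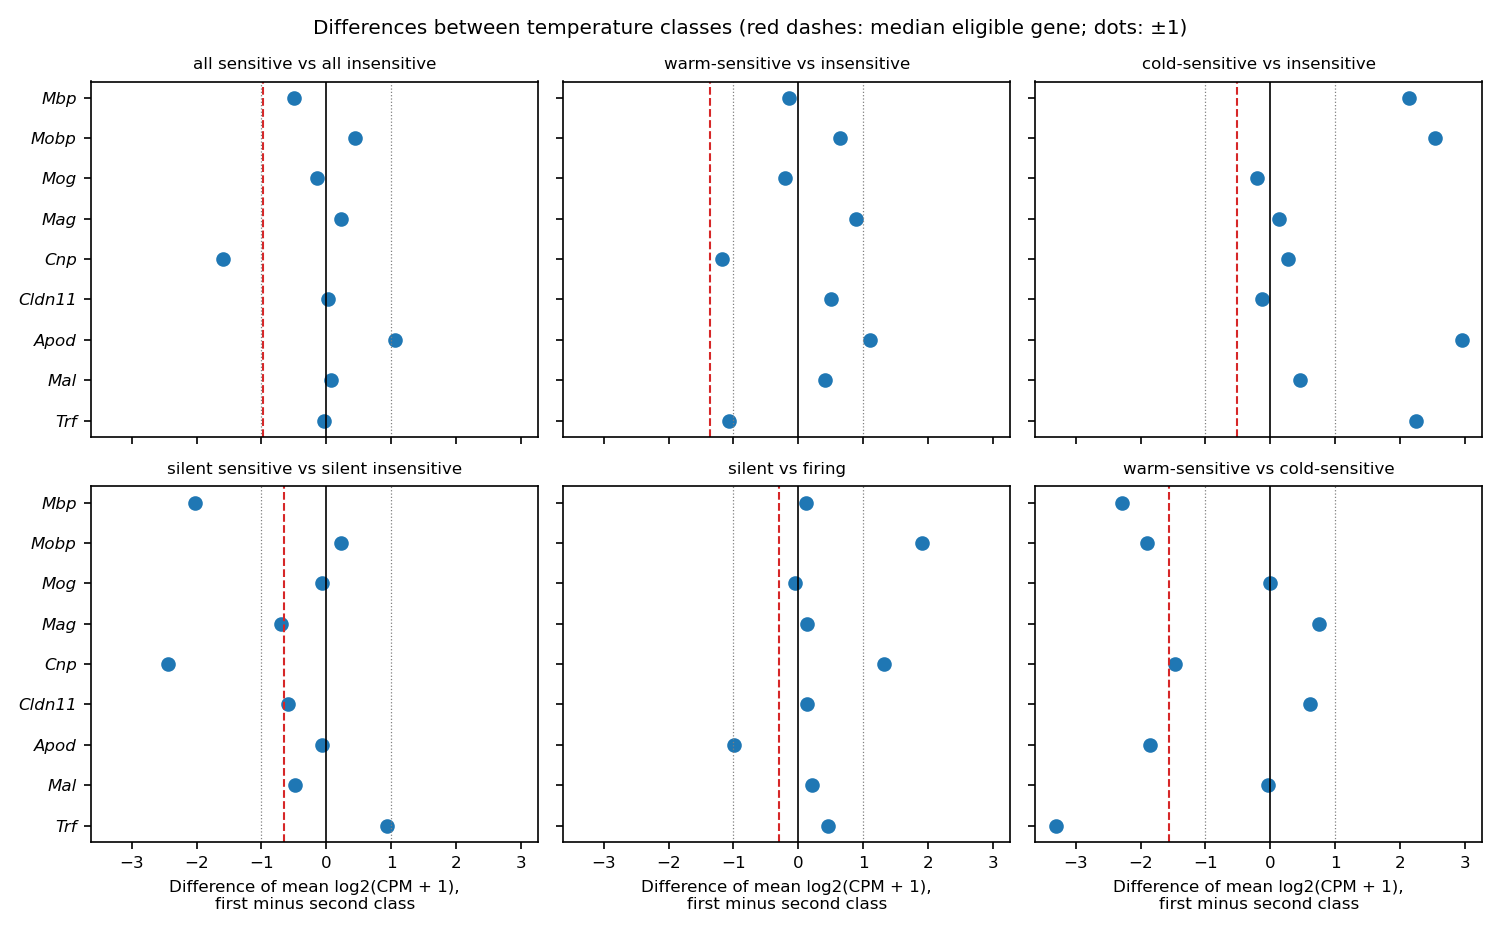
Difference of mean log2(CPM + 1), first group minus second, for each of the 9 genes in the 6 comparisons; red dashes mark the median eligible gene and dotted lines a difference of 1 in either direction. In silent cells against the others Mobp lies at 1.91 and Cnp at 1.33, and in cold-sensitive against insensitive cells 4 genes lie beyond 2.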

How the data were processed

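Per the labels' protocols, the RNA of 96 single mouse neurons was amplified by Smart-seq2. The authors deposited raw read counts, as whole numbers for each gene in each cell. They also deposited normalized signal values, which in a given cell are its counts times a constant of 0.402 to 5.64. The submitters' processing notes name FastQC, STAR, edgeR and mm10, without versions; for annotation, counting step and strand, the sources used here give nothing. Of 24054 genes, 7772 had no count in any cell. Mitochondrially encoded genes were left out, and results of some genes the rule below selects are not reported here.

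CPM are counts per 1000000 of a cell's counts, with Rn45s kept in the total; comparisons use log2(CPM + 1), presence means 10 CPM or more, and a call means a difference of 1 or more. Classes follow the labels, and cells without a class enter only ranges and correlations. Reads are not independent molecules, so intervals and limits for 0 counts, taken as 3 cells of a class, cover counting error only. Correlations with other genes used genes at 10 CPM or more in at least 10 cells. The text names the 9 genes, Ptgds, the other oligodendrocyte genes, the 10 genes most like the myelin level and the 3 most like each gene, leaving out predicted, clone-named, ribosomal protein and mitochondrial genes; some list genes (Snap25, Tmem119, Rn45s) are named beside results. The 9 genes and the marker lists were chosen with earlier results of these data known. Scripts were tested on simulated data. Alternatives were totals without Rn45s, TMM library sizes, DESeq2 size factors, the deposited normalized values, pseudocounts of 0.1 and 10 CPM, thinning to 100000 counts, summed counts, other detection limits, Spearman correlations, classed cells alone, the genes without Apod and Trf, differences within title letters or relative to the median gene, and leaving out each cell. Gene positions are from GENCODE M21 on mm10, and promoter sequences from RefSeq on GRCm38.p6. The tools were Python 3.11.15 with scipy 1.17.1, pandas 2.3.3, numpy 2.4.6 and matplotlib 3.10.9, and R 4.3.3 with DESeq2 1.42.0 and edgeR 4.0.16.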

Additional observations from a re-analysis of the deposited data

Results flagged for a closer look

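Among the classes of 5 and 10 cells, 20 groups of values were examined for 1 cell far from the others, with about 1 in 20 taken as the chance rate. That rate does not hold where many cells are at 0. For Mag and Cldn11 here the other cells are at 0, and 1 read then marks a cell. Apod was at 0 in 7 of 10 silent sensitive cells. Mal was at 0 in 5 of 10 silent sensitive and 3 of 5 cold-sensitive cells. Values are log2(CPM + 1). In cold-sensitive cells Mag was highest in cell 5 at 0.71 and Mal in cell 1 at 5.04. In silent sensitive cells Mag was highest in cell 10 at 0.77, Cldn11 in cell 7 at 0.75, Apod in cell 7 at 9.25 and Mal in cell 2 at 5.33. The Mag and Cldn11 values are below 1 CPM, and the others are above 10 CPM, in a class where most cells were below it.

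The cells without a class enter no comparison, and 3 of them held values above every silent insensitive and insensitive cell. Cell 2 had a myelin level of 9.60, against a highest value of 6.32 in silent insensitive and insensitive cells. Its Mog stood at 7.67 (highest in those cells 4.82), its Mag at 8.53 (5.85), its Cnp at 10.72 (9.74), its Cldn11 at 8.13 (4.23), its Apod at 9.11 (8.41), its Mal at 10.19 (7.70) and its Trf at 11.79 (10.02). Cell 4 had Mog at 6.41 and cell 6 had Apod at 9.65, above the same limits.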

How the results depend on the processing

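The mean difference over the 9 genes moved by less than the smaller SD between cells of the 2 groups under the alternatives run, with these exceptions. Warm-sensitive against insensitive cells gave 1.95 in summed counts and 1.47 relative to the median gene (0.105 in the values reported). Warm-sensitive against cold-sensitive cells gave 1.58 in summed counts and 0.50 relative to the median gene (-1.05 as reported). All sensitive against all insensitive cells gave 0.93 relative to the median gene (-0.048 as reported), a move below that SD. The median correlation of the 36 pairs was 0.13 without cell 2 without a class and warm-sensitive cell 17, against 0.31 with them. Genes present per cell averaged 4.21 at a limit of 1 count, against 2.43 at 10 CPM. Single-gene differences of 1 or more in either direction, eligible or not, that changed sign were Cnp in summed counts (0.017 in all sensitive against all insensitive, 0.32 in warm-sensitive against insensitive, 0.076 in silent sensitive against silent insensitive and 0.71 in warm-sensitive against cold-sensitive cells), Cnp relative to the median gene (0.18 in warm-sensitive against insensitive and 0.093 in warm-sensitive against cold-sensitive cells), Trf relative to the median gene in warm-sensitive against insensitive cells (0.29), and Cnp in warm-sensitive against cold-sensitive cells without cold-sensitive cell 4 (0.0058, in a range of -2.27 to 0.0058 over cells left out). Cnp was not eligible in warm-sensitive against cold-sensitive cells, so its values there are not calls. Counted over all 9 genes, eligible or not, the number higher by 1 or more ran, over these alternatives, from 0 to 5 in all sensitive against all insensitive (1 as reported, 5 relative to the median gene), 0 to 7 in warm-sensitive against insensitive (1, and 7 relative to the median gene), 2 to 5 in cold-sensitive against insensitive (4), 0 to 2 in silent sensitive against silent insensitive (0), 1 to 2 in silent against the other cells (2) and 0 to 4 in warm-sensitive against cold-sensitive cells (0). The number lower ran from 0 to 1 (1), 0 to 2 (2), 0 to 1 (0), 1 to 4 (2), 0 to 3 (0) and 1 to 5 (5) in the same order. Summed counts weigh the few cells with most RNA; otherwise the cause was not tested. Leaving out 1 cell at a time, the mean difference ran from -0.24 to 0.047 in all sensitive against all insensitive, -0.24 to 0.27 in warm-sensitive against insensitive, 0.54 to 1.52 in cold-sensitive against insensitive, -0.89 to -0.34 in silent sensitive against silent insensitive, 0.22 to 0.50 in silent against the other cells and -1.41 to -0.43 in warm-sensitive against cold-sensitive cells, and the median correlation from 0.21 to 0.32. Mog, Mag and Cldn11 were at 0 counts in most cells, so differences in them rest on few cells and were not resolved. No paired analysis was possible because the labels give no replicate number shared between classes.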
